A study of Mus musculus with 4 samples.

Results

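The genes described here are 42 genes of glucose use and of the response to low oxygen, measured by RNA-seq in large intestinal (LI) Treg cells. They were chosen by name, as rows of the table of FPKM (fragments per kilobase of transcript, scaled to the mapped fragments of the library) whose symbol is on a list of glucose and lactate transporters, glycolytic enzymes, parts of the hypoxia-inducible factor (HIF) pathway and known HIF targets, and the rule uses no measured value. All 42 symbols were found among the 53379 rows. The symbol *Aldoa* has 2 rows, of which 1 was listed at 0 to 0.02 FPKM and was not used.

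The groups compared were adult C57BL/6 mice of 6 to 12 weeks. Control mice were Foxp3Cre-YFP Setd2f/+, with Cre and YFP driven by *Foxp3* and 1 floxed copy of the histone H3K36 methyltransferase gene *Setd2*. KO mice were Foxp3Cre-YFP Setd2f/f, with 2 floxed copies, so both groups carried the Cre and differed in the second *Setd2* copy. Each group had 2 libraries, and each library was 1 pool of about 200000 CD3+CD4+YFP+ cells, as the sample records give it, from 2 to 3 littermates. The spread within a group is therefore that between 2 pools. The comparison asks how the loss of *Setd2* in Treg cells bears on the transcripts of glycolysis and of oxygen sensing.

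Glycolysis splits glucose into pyruvate in the cytosol, and in proliferating or activated T cells much of the pyruvate is reduced to lactate and exported. Pyruvate dehydrogenase kinases hold pyruvate back from oxidation in the mitochondrion by inhibiting pyruvate dehydrogenase. HIF is a pair of proteins, an oxygen-labile alpha subunit and a stable partner. With oxygen present, prolyl hydroxylases of the Egln family mark the alpha subunit, the VHL protein recognises the mark, and the subunit is degraded. When oxygen is short the subunit persists and activates genes that hold the core letters ACGTG or GCGTG in their control regions, among them most glycolytic enzymes and also *Egln3*, *Bnip3* and *Pdk1*. The colon wall is a site of low oxygen, and Treg cells are the suppressive T cells that keep its immune responses in check. RNA levels measure neither HIF protein nor flux through glycolysis.

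The targeted gene *Setd2* was at 38.19 and 27.36 FPKM in the 2 controls and at 26.33 and 36.30 in KO, so the groups overlapped. Its log2 fold change, always KO over control on log2(FPKM + 1), was -0.06 with a standard error (SE) of 0.21 (Benjamini-Hochberg adjusted p = 0.927 from limma). The value covers the whole gene, and the genotype of the libraries could not be checked with it. The 4 columns of FPKM share nearly 1 distribution: at the 5000 highest ranks the values differed by at most 0.173%. Depth is unknown, counting error could not be given, and a change in the total mRNA of a cell would not be seen. Of the Treg markers, *Cd3e* lay between 148.95 and 186.61 FPKM, *Cd4* between 130.75 and 220.38, and *Il2ra* between 152.14 and 183.66, but *Foxp3*, the factor that defines Treg cells, was only at 2.62 and 5.61 FPKM in the controls and 4.66 and 3.05 in KO. *Cd8a*, the collagens and the epithelial genes *Cdh1*, *Krt8*, *Krt20* and *Vil1* were at no more than 0.68 FPKM, and *Cd8b1* was at 2.08 to 2.96. *Lyz2*, a myeloid marker, was at 127.83 to 167.97 and the plasma cell gene *Jchain* at 111.97 to 168.57, and the groups overlapped in both. All 5 myeloid markers tested had a log2 fold change above 0, and none had an unadjusted p below 0.05 from limma. The groups did not overlap in 2 of them (40%, compared with 47.1% of all genes tested). *Adgre1* was at 4.38 and 3.66 FPKM in the controls and 5.60 and 6.24 in KO. *Cd14* was at 32.40 and 36.83 in the controls and 40.20 and 41.96 in KO.

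*Egln3*, *Pdk1* and *Bnip3* are shown first by the start of their gene, since they are known HIF targets that were lower or higher in KO, as given below. The windows run from 250 bases before to 50 bases after the RefSeq start site on GRCm38.p6, are written 5′ to 3′ on the strand of the gene, and mark in capitals each ACGTG or GCGTG on either strand (the reverse strand reads CACGT or CACGC here). *Egln3* encodes a prolyl hydroxylase that is itself a HIF target, *Pdk1* a pyruvate dehydrogenase kinase, and *Bnip3* a mitochondrial protein of mitophagy and cell death.
*Egln3* (chr12:54203825-54204124, minus strand): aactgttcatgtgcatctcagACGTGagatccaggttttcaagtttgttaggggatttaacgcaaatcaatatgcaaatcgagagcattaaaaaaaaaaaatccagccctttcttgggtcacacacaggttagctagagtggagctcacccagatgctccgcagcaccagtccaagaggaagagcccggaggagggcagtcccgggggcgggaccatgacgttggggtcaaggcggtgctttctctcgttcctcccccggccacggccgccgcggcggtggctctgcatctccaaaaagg
*Pdk1* (chr2:71872974-71873273, plus strand): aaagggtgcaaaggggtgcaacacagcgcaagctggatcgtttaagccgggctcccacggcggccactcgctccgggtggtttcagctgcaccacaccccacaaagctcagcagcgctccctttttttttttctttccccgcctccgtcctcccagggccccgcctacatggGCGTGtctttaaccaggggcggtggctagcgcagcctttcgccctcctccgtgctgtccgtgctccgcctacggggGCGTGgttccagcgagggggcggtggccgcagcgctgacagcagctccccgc
*Bnip3* (chr7:138909457-138909756, minus strand): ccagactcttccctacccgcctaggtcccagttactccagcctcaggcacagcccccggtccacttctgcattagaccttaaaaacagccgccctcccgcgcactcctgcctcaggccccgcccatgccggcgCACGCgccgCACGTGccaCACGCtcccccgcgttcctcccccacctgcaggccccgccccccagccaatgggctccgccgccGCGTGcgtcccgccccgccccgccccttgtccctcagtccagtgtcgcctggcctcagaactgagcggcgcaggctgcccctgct
The window of *Egln3* held 1 run of these letters, at -229 from the start site, that of *Pdk1* held 2, at -78 and -2, and that of *Bnip3* held 4, at -117, -108, -99 and -35. In *Bnip3* the run at -108 reads ACGTG on both strands and overlaps itself. The 2 genes that were lower in KO and the 1 that was higher therefore all held the letters. Of 42 members, 39 had a window, and 28 of the 35 tested members with a window held a match, or 80.0%, compared with 66.2% of the 6080 tested genes that had one and 43.8% of all 32851 windows. All 6 members called higher or lower below held at least 1. A match is a description of the letters and shows no binding.

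Of the 42 members, 38 passed the filter of the study, a protein-coding gene whose mean FPKM exceeded 5 in control or KO, together with 7639 genes in all. The 4 others were *Hk3*, *Pfkm*, *Eno2* and *Vegfa*, at no more than 1.83 FPKM in any library. None of the 38 passed an adjusted p of 0.05 from limma, against 0.589% of all genes tested (45 genes), and without control 1 there was 1, *Egln3*. At the unadjusted p of 0.05 that the study used, 2 members were higher in KO (5.26%, background 8.61%), namely *Bnip3* and *Aldoc*. Another 4 were lower (10.5%, background 7.57%), namely *Egln3*, *Slc16a1*, *Pdk1* and *Eno3*, and this count was 6 without control 1 and 2 without KO 1. Both shares lay near the share of all genes, so neither count set the list apart from the genes tested. The words higher and lower are used below for these 6 calls and, outside the members, for genes past the same unadjusted p.

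Among the 38 members the log2 fold change was above 0 in 12 and below 0 in 26, with a median of -0.07 compared with -0.004 over all genes tested. It ranged from -0.80 for *Egln3* to 0.56 for *Bnip3*. The median SE of a member was 0.14. Both KO libraries lay on 1 side of both control libraries in 14 members (36.8%), 5 above and 9 below, and over all genes in 47.1%. For 1 gene, an exact permutation of 2 against 2 libraries reaches 0.333 at best, and the p-values here draw on the variance pooled by limma over genes. The median of the members was -0.162 without control 1 and 0.026 without KO 2.

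**Figure D1:**
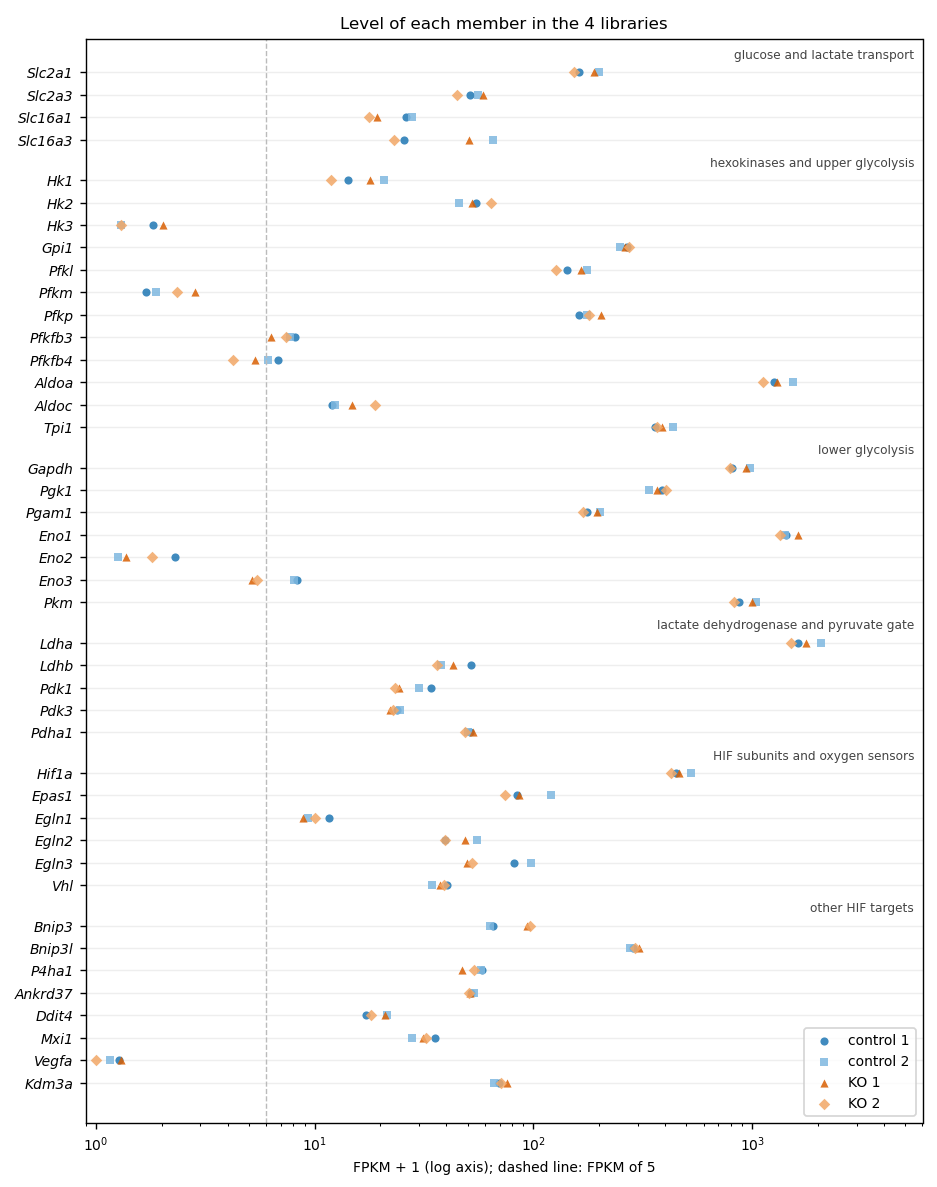
FPKM + 1 (log axis) of each of the 42 members in control 1, control 2, KO 1 and KO 2, grouped by role. Levels run from under 1 FPKM for *Vegfa* to 2071.94 FPKM for *Ldha* in control 2, and the dashed line marks an FPKM of 5, the filter on the group means.

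Glucose enters the cell through facilitative transporters, and lactate leaves it through proton-linked monocarboxylate transporters. *Slc2a1*, the widely expressed glucose transporter, was at 160.07 and 198.66 FPKM in control 1 and 2 and at 188.79 and 152.14 in KO 1 and 2. For *Slc2a1* the log2 fold change was -0.07 (95% interval -0.43 to 0.29). The high-affinity transporter *Slc2a3* was at 50.21, 54.54, 57.68 and 43.72 FPKM in the same order. The groups overlapped in both genes, and *Slc2a1* made up 76.1% to 78.5% of the summed FPKM of the pair in every library.

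*Slc16a1*, a transporter that carries lactate in either direction, was lower in KO. It was at 25.14 and 26.85 FPKM in control 1 and 2 and at 18.21 and 16.70 in KO 1 and 2, with no overlap. The log2 fold change was -0.55 (SE 0.14, unadjusted p = 0.0060, adjusted p = 0.143 from limma), and the gene lies on chromosome 3 of GRCm38 at 104638668 to 104658462. *Slc16a3*, the lactate exporter typical of glycolytic cells, was at 24.75 and 64.64 FPKM in control 1 and 2 and at 49.83 and 22.10 in KO 1 and 2. No other tested member varied as much, by 2.61 times between the 2 control libraries and by 2.25 times between the 2 KO libraries. Its log2 fold change of -0.26 has a 95% interval from -1.38 to 0.86, a wide range that includes changes of either sign.

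Hexokinases trap glucose as its phosphate. *Hk2*, the inducible isozyme, made up 69.0% to 84.9% of hexokinase FPKM and was at 53.61 and 44.57 in control 1 and 2 and at 51.44 and 63.10 in KO 1 and 2. The housekeeping isozyme *Hk1* was at 10.92 to 19.71 FPKM and *Hk3* at no more than 1.02. Neither *Hk1* nor *Hk2* passed the test, and the groups overlapped in both. *Gpi1*, the isomerase of the next step, was at 267.84 and 247.82 FPKM in control 1 and 2 and at 261.86 and 271.39 in KO 1 and 2, with a log2 fold change of 0.05 and a 95% interval from -0.20 to 0.30.

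Phosphofructokinase catalyses the committed step, and here its FPKM was divided almost evenly between the liver type *Pfkl* and the platelet type *Pfkp*. *Pfkl* was at 141.89 and 175.60 FPKM in control 1 and 2 and at 164.04 and 126.22 in KO 1 and 2. *Pfkp* was at 160.31 and 175.22 in the controls and at 202.84 and 179.41 in KO, with a log2 fold change of 0.19 (unadjusted p = 0.158 from limma) and no overlap. The share of *Pfkp* was 52.9% and 49.8% in the controls and 55% and 58.4% in KO, so the 2 KO libraries had the larger shares. These shares were not tested. The muscle type *Pfkm* made up under 0.5% in every library. *Pfkfb3* and *Pfkfb4*, which make the activator of phosphofructokinase, were low, at 5.31 to 7.13 and 3.22 to 5.78 FPKM, and in both the 2 KO libraries lay below the 2 control libraries without passing the test (adjusted p = 0.658 and 0.420 from limma).

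Aldolase cleaves the hexose, and *Tpi1* interconverts the resulting trioses. *Aldoa* carried 98.4% to 99.3% of aldolase FPKM, at 1257.48 and 1532.70 in control 1 and 2 and at 1294.56 and 1115.96 in KO 1 and 2. The minor isozyme *Aldoc*, known from brain, was higher in KO, at 11.07 and 11.45 FPKM in the controls and 13.82 and 17.97 in KO. For *Aldoc* the log2 fold change was 0.45 (SE 0.18, unadjusted p = 0.041, adjusted p = 0.289 from limma). *Aldoc* lies on chromosome 11 at 78322968 to 78327781. Because *Aldoc* was at most 1.58% of the family, the summed aldolase FPKM followed *Aldoa*, with 1269 and 1544 in the controls and 1308 and 1134 in KO. *Tpi1* was at 358.02 to 433.43 FPKM and the groups overlapped.

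The enzymes from *Gapdh* to *Pkm* harvest ATP and NADH. *Gapdh* was at 809.99 and 973.25 FPKM in control 1 and 2 and at 936.01 and 792.97 in KO 1 and 2. For *Gapdh* the log2 fold change was -0.04, with a 95% interval from -0.37 to 0.28. *Pkm*, pyruvate kinase, was at 867.67, 1040.15, 996.21 and 823.91 FPKM in the same order, and *Pgam1*, phosphoglycerate mutase, at 174.66, 200.36, 195.24 and 167.03. In these 3 genes control 2 and KO 1 were the high libraries and control 1 and KO 2 the low ones. *Pgk1*, phosphoglycerate kinase, had the reverse order, with 385.95 and 335.07 FPKM in control 1 and 2 and 367.01 and 401.11 in KO 1 and 2. None of the 4 passed the test.

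*Eno1*, the ubiquitous enolase, was at 1431.05 and 1416.91 FPKM in the controls and at 1621.44 and 1331.92 in KO and made up 99.4% to 99.7% of enolase FPKM. *Eno3*, the muscle enolase, was lower in KO, at 7.27 and 7.02 FPKM in control 1 and 2 and 4.15 and 4.48 in KO 1 and 2. The log2 fold change of *Eno3* was -0.62 (SE 0.21, unadjusted p = 0.020, adjusted p = 0.222 from limma), at chromosome 11, 70657202 to 70662513. Both *Aldoc* and *Eno3* are thus minor isozymes whose family total was set by another gene that did not pass the test. Over the 16 glycolytic enzymes and regulators tested from hexokinase to pyruvate kinase, 1 was higher (6.25%, background 8.61%) and 1 was lower (6.25%, background 7.57%). The other 14 were neither, and the median log2 fold change was -0.06.

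Several of these genes have near copies in the genome, and how the authors' quantification divided reads between them is uncertain. The processed pseudogenes *Gm10359* and *Gm12671* share 100% of their 100-base words with *Gapdh* and were at 4.82 to 8.67 FPKM each, and another, *Gm7336*, shares 91.0% and was at 37.67 to 45.43. *Gm4735* shares 69.3% with *Eno1* and was at 41.45 to 50.14 FPKM. *Pgam1-ps2* shares 100% with *Pgam1* and was at 29.50 to 44.84 FPKM. Of the copies of *Pgk1*, *Gm5537* and *Pgk1-rs7* each share 100% with it. *Gm5537* was at 39.66 and 28.64 FPKM in the controls and 13.62 and 40.69 in KO, and *Pgk1-rs7* was at 24.31 in KO 1 and listed at 0 in the other 3 libraries. The copies of the 6 called members that were found, 2 pseudogenes of *Bnip3*, were at no more than 2.20 FPKM. The exons of *Pfkp* overlap those of *Pitrm1* on the other strand, at 10.74 to 13.82 FPKM, and those of *Mxi1* overlap *Gm10197*, at 35.75 to 85.57. The strandedness of the kit is not given in the sources used here, so reads in these overlaps cannot be assigned.

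**Figure D2:**
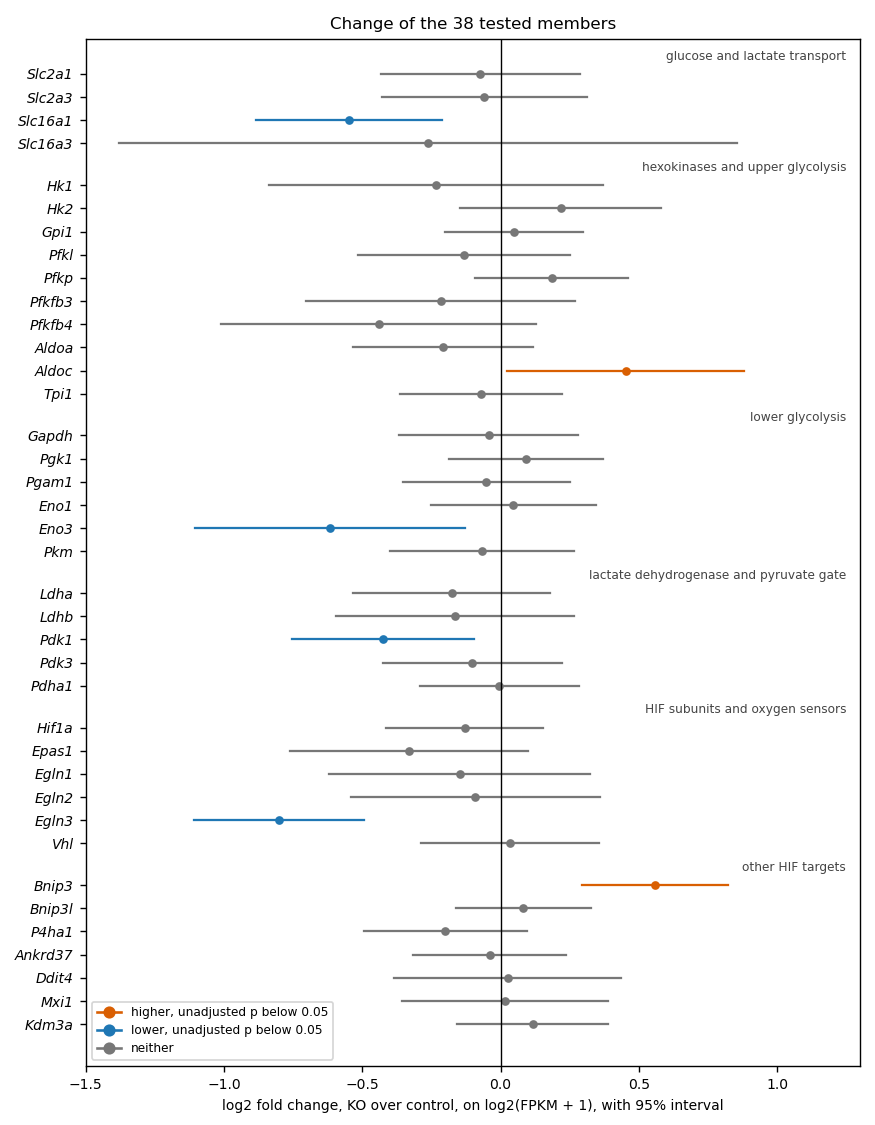
Log2 fold change (KO over control, on log2(FPKM + 1)) with its 95% interval from limma for the 38 tested members, by role. *Egln3*, *Slc16a1*, *Pdk1* and *Eno3* lie below 0 and *Bnip3* and *Aldoc* above 0 at an unadjusted p below 0.05, and the other 32 intervals include 0.

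Lactate dehydrogenase and the pyruvate dehydrogenase kinases decide the fate of pyruvate. *Ldha*, the subunit that favours lactate, had the highest FPKM of all members in every library, at 1621.44 and 2071.94 in control 1 and 2 and at 1758.38 and 1497.32 in KO 1 and 2. It was 96.9% to 98.3% of the pair with *Ldhb*, which was at 35.32 to 51.09 FPKM. Neither passed the test, and the 95% interval of the log2 fold change of *Ldha* ran from -0.53 to 0.18. *Pdk1* was lower in KO, at 32.91 and 29.00 FPKM in the controls and 23.22 and 22.31 in KO. The log2 fold change of *Pdk1* was -0.42 (SE 0.14, unadjusted p = 0.018, adjusted p = 0.222 from limma), and the gene lies on chromosome 2 at 71873224 to 71903858. Its relative *Pdk3* was at 22.78 and 23.56 FPKM in the controls and 21.19 and 21.84 in KO, with a log2 fold change of -0.10 (adjusted p = 0.777 from limma). *Pdha1*, the subunit of pyruvate dehydrogenase that these kinases phosphorylate, was at 47.49 to 51.80 FPKM, with a log2 fold change of -0.005 and a 95% interval from -0.29 to 0.28.

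Among the HIF subunits and oxygen sensors, *Hif1a* was the more abundant alpha subunit, with 81.5% to 85.3% of the summed FPKM of *Hif1a* and *Epas1*. *Hif1a* was at 446.59 and 524.55 FPKM in control 1 and 2 and at 460.01 and 425.40 in KO 1 and 2. *Epas1*, the other alpha subunit, was at 82.71 and 119.34 in the controls and 84.62 and 73.37 in KO (log2 fold change -0.33, adjusted p = 0.421 from limma). *Vhl*, the recognition subunit of the ligase that removes HIF, was at 33.50 to 39.21 FPKM with a log2 fold change of 0.03. The groups overlapped in all 3 genes.

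*Egln3* had the smallest p-value of the 38 members. It was at 80.96 and 96.03 FPKM in control 1 and 2 and at 48.88 and 51.53 in KO 1 and 2, so the KO mean was 0.567 of the control mean. The log2 fold change was -0.80 (SE 0.13, unadjusted p = 0.00041, adjusted p = 0.0577 from limma), and the gene lies on chromosome 12 at 54178981 to 54203860 on the minus strand. The other prolyl hydroxylases did not pass the test: *Egln2* was at 38.37 and 54.37 FPKM in the controls and 47.52 and 38.57 in KO, and *Egln1*, the main oxygen sensor in most tissues, was at 7.85 to 10.69. *Egln3* made up 62.3% and 60.5% of the FPKM of the family in the controls and 46.9% and 52.0% in KO, and *Egln2* 29.5% and 34.2% in the controls and 45.6% and 38.9% in KO. The summed FPKM of the 3 hydroxylases was 130 and 158.8 in the controls and 104.2 and 99.19 in KO. The adjusted p of *Egln3* over 12 alternative settings, which do not include a crossed pairing of libraries added later, lay between 0.0447, without control 1, and 0.361, with no filter on low values, and it was 0.0970 without control 2.

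**Figure D3:**
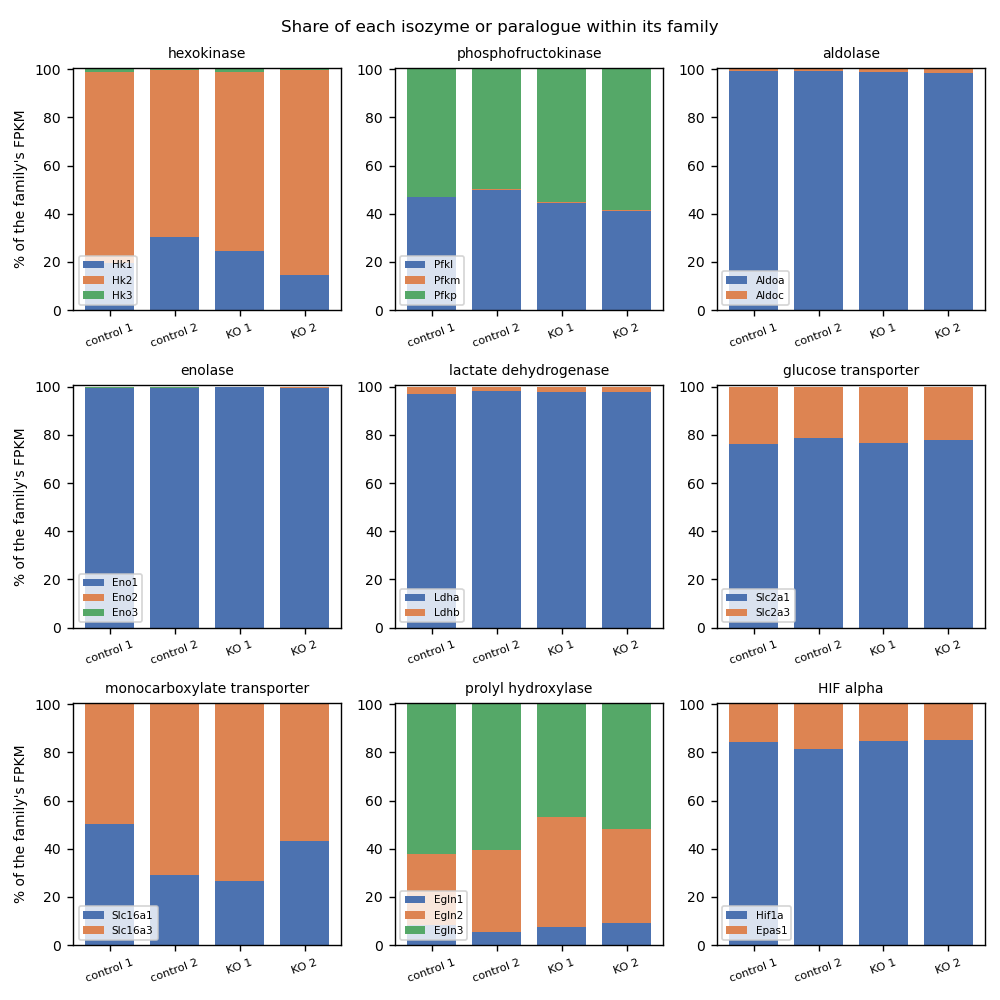
Share of each isozyme or paralogue in the summed FPKM of its family (percent, stacked bars from 0 to 100) in each library. *Ldha*, *Aldoa* and *Eno1* fill at least 96.9% of their families, and the share of *Egln3* was 46.9% and 52.0% in KO compared with 62.3% and 60.5% in control.

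Of the 8 other HIF targets, 7 were tested and *Bnip3* alone was called, as higher in KO (14.3%, background 8.61%). It was at 64.17 and 62.51 FPKM in control 1 and 2 and at 92.09 and 95.39 in KO 1 and 2, a ratio of means of 1.48. The log2 fold change of *Bnip3* was 0.56 (SE 0.11, unadjusted p = 0.0014, adjusted p = 0.0821 from limma), and it lies on chromosome 7 at 138890836 to 138909519 on the minus strand. Its paralogue *Bnip3l*, also a receptor of mitophagy, was at 284.48 and 275.52 FPKM in the controls and at 304.10 and 289.10 in KO, with a log2 fold change of 0.08 and a 95% interval from -0.16 to 0.33. The 2 genes therefore both had higher values in the KO libraries, but only *Bnip3* passed the unadjusted threshold, and the difference between them was not tested.

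None of the remaining targets passed the test. *P4ha1*, a prolyl hydroxylase of collagen, was at 57.21 and 56.37 FPKM in the controls and 46.42 and 52.43 in KO (log2 fold change -0.20, adjusted p = 0.477 from limma). *Kdm3a*, a histone H3K9 demethylase, was at 64.96 to 74.65, *Ankrd37* at 49.91 to 52.36, *Mxi1*, an antagonist of *Myc*, at 26.74 to 34.62, and *Ddit4*, an inhibitor of mTOR signalling, at 16.10 to 20.40. Their log2 fold changes lay between -0.04 for *Ankrd37* and 0.12 for *Kdm3a*. *Vegfa*, the angiogenic factor often used to report HIF activity, was at no more than 0.31 FPKM.

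The HIF targets among the calls were thus on both sides. *Egln3* and *Pdk1* were lower in KO and *Bnip3* was higher, while *Slc2a1*, *Ldha*, *Pgk1* and *Aldoa*, targets of the same factor, had intervals that included 0. The unadjusted p stayed below 0.05 in all 12 alternative settings for *Egln3*, *Bnip3* and *Slc16a1*, in 8 for *Pdk1* and *Eno3* and in 7 for *Aldoc*. *Pdk1* had an unadjusted p of 0.0949 without control 1, 0.0638 without KO 1 and 0.0948 without KO 2. That of *Eno3* was 0.0827 without control 1, 0.0677 without control 2 and 0.0743 without KO 1. That of *Aldoc* was 0.0970 without control 1, 0.0707 without control 2 and 0.279 without KO 2.

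A different pattern, noticed in the values themselves, ran through many members. In 15 of the 38 (39.5%) control 2 and KO 1 were the 2 highest libraries, an order found in 17.7% of all genes tested, and which follows neither the genotype nor the replicate number. The 15 were *Slc2a1*, *Slc2a3*, *Slc16a3*, *Hk1*, *Pfkl*, *Aldoa*, *Tpi1*, *Gapdh*, *Pgam1*, *Pkm*, *Ldha*, *Hif1a*, *Epas1*, *Egln2* and *Ddit4*. Between their highest and lowest library, *Slc16a3* varied by 2.92 times, *Hk1* by 1.80, *Epas1* by 1.63 and *Egln2* by 1.42, and the other 11 by 1.2 (*Pgam1*) to 1.39 (*Pfkl*). Of the orders that follow the genotype, the 2 KO libraries were highest in 13.2% of the members compared with 24.2% of all genes, and the 2 controls in 23.7% compared with 22.9%. The immediate-early genes had the same order in 5 of 6 cases. All 6 had a log2 fold change below 0, and the other gene, *Egr1*, was lower in KO (16.7% of the 6, background 7.57%). *Egr1* was at 56.84 and 70.94 FPKM in the controls and 46.92 and 33.45 in KO (log2 fold change -0.67, adjusted p = 0.170 from limma). The summed FPKM of the 6 was 2086 and 3915 in control 1 and 2 and 2748 and 1567 in KO 1 and 2. *Junb*, a subunit of the AP-1 factor, was at 1206.85, 2771.52, 1790.25 and 813.41 FPKM in that order, and *Slc16a3* had the same ranking. Their part in the values of the members was not tested. Leaving out control 1 gave log2 fold changes of -0.350 for *Aldoa*, -0.352 for *Ldha*, -0.938 for *Slc16a3* and -0.593 for *Epas1*. Without control 2 they were -0.065, 0.001, 0.412 and -0.069 in the same order.

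**Figure D4:**
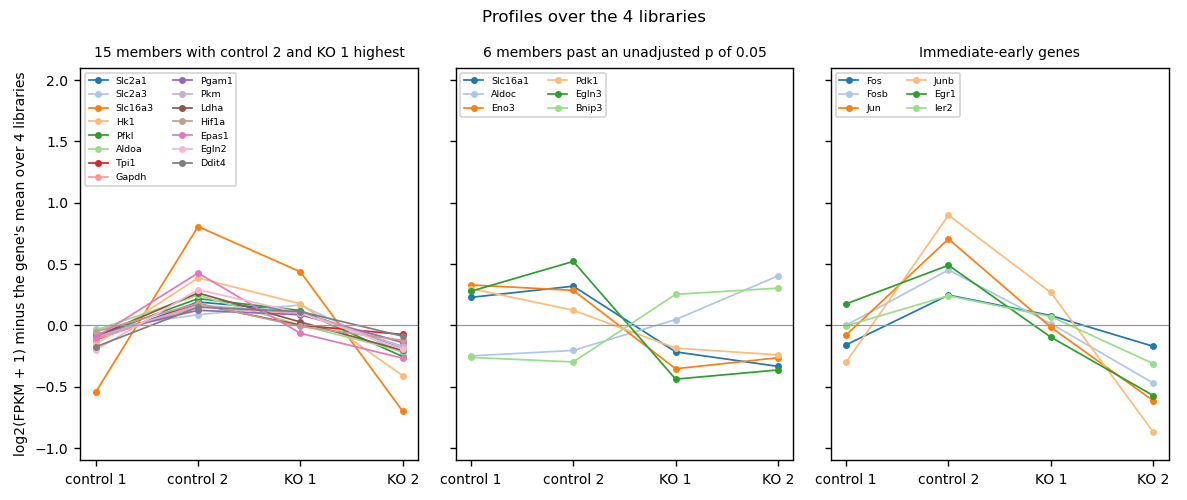
Log2(FPKM + 1) of each gene minus its mean over the 4 libraries, for the 15 members with control 2 and KO 1 highest (left), the 6 members past an unadjusted p of 0.05 (centre) and 6 immediate-early genes (right). The left curves peak in control 2 or KO 1, *Slc16a3* most, while in the centre the 2 control points lie together on 1 side of the 2 KO points.

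Of 104 further genes of these pathways, 72 were tested. None passed an adjusted p of 0.05 from limma (1, *Myc*, without control 1), 7 were higher (9.72%) and 6 lower (8.33%) at the unadjusted p, against the 8.61% and 7.57% of all genes. The pentose phosphate pathway (8 tested), pyruvate import and pyruvate dehydrogenase (9 tested) and the other hexose transporters and phosphatases (7 tested) held no gene past either threshold.

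In glycogen metabolism, which branches from glycolysis at glucose phosphate, 3 of 7 genes tested were higher (42.9%, background 8.61%) and none was lower. The list was drawn up with earlier results of these data known, so this share is no test of the pathway. Another 5 listed genes lay below the filter and were not tested. Among them *Gys1*, a glycogen synthase, was at 0.92 and 0.99 FPKM in the controls and 0.42 and 0.50 in KO. *Pygl*, a glycogen phosphorylase, went the other way, at 1.44 and 0.74 in the controls and 2.94 and 3.42 in KO. *Ugp2*, which makes the UDP-glucose used for glycogen, was at 31.40 and 35.66 FPKM in control 1 and 2 and at 52.90 and 60.00 in KO 1 and 2 (log2 fold change 0.73, adjusted p = 0.0736 from limma). *Pgm2*, a phosphoglucomutase, was at 26.90 and 27.52 in the controls and 37.87 and 35.01 in KO (log2 fold change 0.41, adjusted p = 0.215 from limma). *Gbe1*, the glycogen branching enzyme, was at 10.75 and 10.96 in the controls and 13.90 and 15.11 in KO (log2 fold change 0.39, adjusted p = 0.303 from limma). Leaving out any 1 library left 1 or 2 of these 3 genes past the unadjusted p. *Gbe1* was lost each time. Over the 12 alternative settings the unadjusted p from limma stayed below 0.05 in 12 for *Ugp2*, 9 for *Pgm2* and 7 for *Gbe1*. With 1 library left out, the log2 fold change of *Pgm2* ran from 0.352 to 0.463.

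Of 17 further HIF targets tested, 5 were lower and none higher, or 29.4% lower compared with 7.57% of all genes. In 12 (70.6%, background 47.1%) the groups did not overlap, with the KO libraries below in 11. The list was drawn up with earlier results of these data known, so neither share is a test of HIF targets. *Rora*, a nuclear receptor, was at 843.69 and 834.37 FPKM in the controls and 589.31 and 563.13 in KO (log2 fold change -0.54, adjusted p = 0.0741 from limma). *Tfrc*, the transferrin receptor, was at 49.22 and 50.09 in the controls and 34.22 and 36.32 in KO, with a log2 fold change of -0.48. *Nt5e*, the ectonucleotidase CD73, was at 196.91 in both controls and 144.38 and 159.14 in KO, with a log2 fold change of -0.38. *Wsb1*, part of a ubiquitin ligase, and *Cxcr4*, a chemokine receptor, had log2 fold changes of -0.47 and -0.56. The unadjusted p of *Nt5e* was 0.0893 without KO 1, and that of *Cxcr4* was 0.0674 without control 2 and 0.0909 without KO 2. Most of these genes also answer to signals other than oxygen. Of 10 genes of the HIF machinery tested, *Elob*, elongin B of the VHL ligase, was higher (10%, background 8.61%) and none was lower. *Elob* was at 390.13 and 367.90 FPKM in the controls and 529.63 and 597.98 in KO (log2 fold change 0.57, adjusted p = 0.0821 from limma).

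Of 14 regulators of glycolysis tested, *Myc* was lower (7.14%, background 7.57%) and *Mtor*, *Mlx* and *Prkaa1* were higher (21.4%, background 8.61%). *Myc*, an activator of glycolytic genes, was at 63.35 and 76.96 FPKM in control 1 and 2 and at 39.87 and 37.80 in KO 1 and 2 (log2 fold change -0.83, adjusted p = 0.0612 from limma, and 0.0435 without control 1). The range of that adjusted p over the 12 alternative settings was 0.0435 to 0.394. *Mtor*, the growth kinase, was at 25.26 and 21.79 in the controls and 30.68 and 32.84 in KO, *Prkaa1*, a catalytic subunit of the AMP-activated kinase, at 8.63 and 8.42 in the controls and 11.05 and 12.34 in KO, and *Mlx*, a partner of carbohydrate-response factors, at 35.11 and 36.95 in the controls and 54.12 and 42.62 in KO. Their log2 fold changes were 0.42, 0.41 and 0.41, and without KO 1 none of the 3 had an unadjusted p below 0.05 (0.0615, 0.0889 and 0.247). That of *Mtor* was also 0.103 without control 2 and 0.121 without KO 2, that of *Mlx* 0.0842 without control 1, and that of *Prkaa1* 0.0889 to 0.211 without any 1 library.

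**Figure D5:**
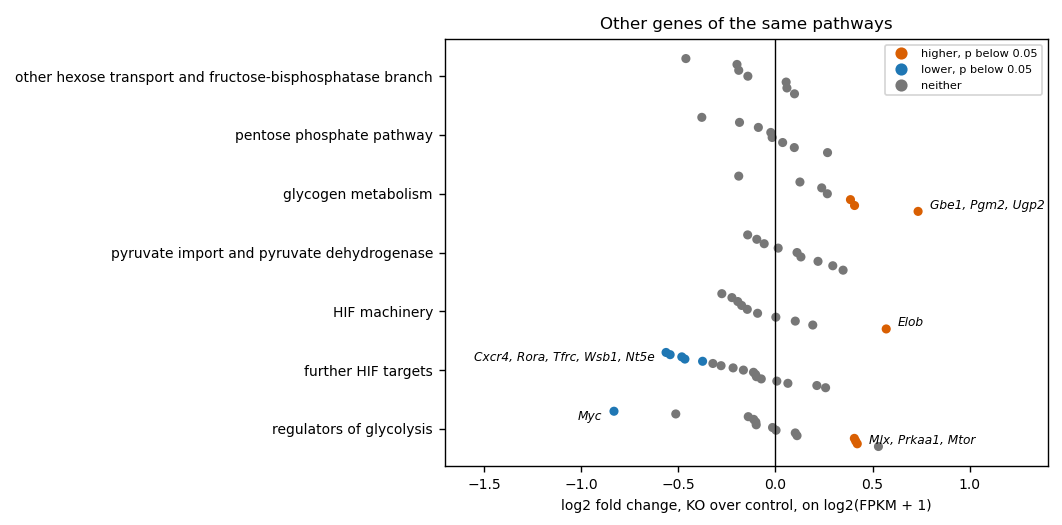
Log2 fold change (KO over control, on log2(FPKM + 1)) of the 72 tested genes of 7 further lists of the same pathways, 1 point per gene. Named points passed an unadjusted p of 0.05: 3 glycogen genes, *Elob*, *Mlx*, *Prkaa1* and *Mtor* above 0, and *Myc* and 5 further HIF targets below 0.

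Some markers of other states differed between the groups at the unadjusted p. All 5 proliferation markers were higher in KO (100%, background 8.61%), and none passed an adjusted p of 0.05 (smallest 0.0612 from limma, for *Top2a*). Their summed FPKM was 67.27 and 75.10 in control 1 and 2 and 122.43 and 107.56 in KO 1 and 2. *Top2a*, a topoisomerase of dividing cells, was at 19.05 and 19.42 in the controls and 36.28 and 33.18 in KO. Of the Treg markers, *Ctla4*, an inhibitory receptor, was higher in KO, at 1593.26 and 1700.67 FPKM in the controls and 2159.97 and 2310.35 in KO (log2 fold change 0.44, adjusted p = 0.132 from limma). *Ikzf2*, which encodes Helios, was lower, at 120.75 and 115.57 in the controls and 84.12 and 98.36 in KO (log2 fold change -0.37, adjusted p = 0.222 from limma). *Pecam1*, a marker of endothelium that some leukocytes also express, was higher, at 34.65 and 36.26 in the controls and 49.25 and 42.72 in KO, while *Cdh5*, the other endothelial marker, was at no more than 0.11. *Epcam* was lower in KO, at 28.65 and 30.81 in the controls and 19.58 and 21.13 in KO, while the other 4 epithelial markers were at no more than 0.49 FPKM. Of the Y-linked genes, *Ddx3y* and *Kdm5d* were higher in KO, with log2 fold changes of 0.50 and 0.90, and *Eif2s3y* and *Uty* were not. The X-linked *Xist*, not protein-coding and so not tested, was at 7.22 and 7.02 FPKM in the controls. In KO it was at 5.08 and 6.41, with no overlap. The X-linked members *Pgk1*, *Pdk3* and *Pdha1* were not called. The part of these markers, of proliferation or of the sex of the pooled mice in the values of the members was not tested. In bulk RNA from sorted cells, fewer cells of a kind and less RNA per cell cannot be told apart.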

How the data were processed

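Poly(A) RNA of sorted LI Treg cells was sequenced in paired reads of 150 bases. The authors mapped them to GRCm38 with STAR 2.5, quantified genes with RSEM 1.2 on GENCODE M16 and deposited FPKM for 53379 genes, rounded to 2 decimals. Equal ranks hold nearly equal values, as quantile normalization gives, a step the methods do not name. These values are not counts, so no count test was run.

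Gene types and positions came from GENCODE M21, which held 53274 of the identifiers. limma 3.58.1 (R 4.3.3, trended empirical Bayes) was fitted to log2(FPKM + 1), KO minus control, over protein-coding genes whose mean FPKM exceeded 5 in control or KO, and p-values were adjusted over all of them by the Benjamini-Hochberg method. A fold change on this scale understates that of low genes. The fit was tested on simulated data.

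Members and lists were chosen with earlier results of these data known. All 42 members were covered, with values per library for those at an unadjusted p below 0.05 and the main isozyme of each family, and of other lists those past that p. The genes overlapping or copying members, *Junb*, *Top2a*, *Epcam*, *Gys1* and *Pygl*, and the markers given, were named after their values were seen. Nothing says that same-numbered pools were collected together, and their deviations correlated at r = -0.305 over 7639 genes, so the number was used as a block only as an alternative. Other alternatives were pseudocounts of 0.1 and 5, a minimum mean FPKM of 1, no filter, all gene types, median-centred libraries, no trend and each library left out. Promoter windows are those of RefSeq, GRCm38.p6. Figures were drawn with matplotlib 3.10.9 in Python 3.11.15.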

Additional observations from a re-analysis of the deposited data

How the results depend on the processing

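With 2 libraries per group the p-values lean on the variance shared across genes, and depth is unknown. Changing the pseudocount, filtering at a mean FPKM of 1, testing all gene types, median-centring and dropping the trend left the counts of calls within 1.5 times. Median-centring could change little, since the columns already share nearly 1 distribution. With no filter on low values 1 member was higher in place of 2, and 10 of the other pathway genes were lower in place of 6, where more genes were tested. With the replicate number as a block, 1 member was higher and 2 lower, 2 other pathway genes were higher in place of 7, and 1 glycogen gene in place of 3. Same-numbered libraries did not deviate together, so this block shows no pairing. With the pairs crossed (control 1 and KO 2, control 2 and KO 1), an alternative added after the data were seen, 3 members and 6 other pathway genes passed the adjusted p in place of 0 of each, and 10 other pathway genes were lower at the unadjusted p. With 2 libraries per group, same-numbered libraries that deviate apart make the crossed ones deviate together. More calls under the crossed block could thus be foreseen, and its counts give the genes no support.

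Leaving out 1 library, with the fit then taking the lone library of a group to vary like the others, gave 1 to 2 members higher, 2 (without KO 1) to 6 (without control 1) lower and 0 to 1 past the adjusted p (*Egln3*, without control 1), 0 to 1 other pathway genes past it (*Myc*, without control 1), 2 to 5 higher, and 1 to 2 glycogen genes higher. The median log2 fold change of the members ran from -0.162 to 0.026, more than the spread of 0.049 between replicates, and so had no stable direction. The log2 fold changes of 20 members not called changed sign in this way, over these ranges: *Ddit4* -0.136 to 0.187, *Egln1* -0.307 to 0.011, *Egln2* -0.338 to 0.154, *Eno1* -0.096 to 0.187, *Gapdh* -0.176 to 0.089, *Gpi1* -0.007 to 0.105, *Hk1* -0.526 to 0.060, *Ldha* -0.352 to 0.001, *Ldhb* -0.397 to 0.069, *Mxi1* -0.165 to 0.196, *Pdha1* -0.066 to 0.057, *Pfkl* -0.320 to 0.055, *Pgam1* -0.163 to 0.061, *Pgk1* -0.008 to 0.195, *Pkm* -0.205 to 0.068, *Slc16a3* -0.938 to 0.412, *Slc2a1* -0.228 to 0.082, *Slc2a3* -0.254 to 0.138, *Tpi1* -0.209 to 0.066 and *Vhl* -0.076 to 0.145. The cause of these changes was not tested.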
